A study of Mus musculus with 8 samples.

Results

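The unfolded protein response (UPR) and the chaperones of the endoplasmic reticulum (ER) were examined in bipotential mouse embryonic liver (BMEL) cells, a line derived from embryonic mouse liver that can give rise to hepatocyte-like and biliary-like cells. The 37 members were taken by gene symbol as a list of ER folding and ER-associated degradation (ERAD) genes, and all 37 were found among the 18671 genes of the expression table. RNA-seq had been performed on 8 samples harvested 48 h after transfection. In 4 of them (GRHL2) the plasmid coded for the epithelial transcription factor GRHL2, as the human cDNA fused to a Flag tag and driven by the EF1A promoter, together with enhanced green fluorescent protein. The other 4 samples (pcDNA3) received a pcDNA3 vector. The plasmids thus differ by more than GRHL2, and the study's legends call the 4 samples of each group independent biological replicates. The values are expression levels per transcript length on a log2 scale, so that levels of different genes can be set side by side, and a difference of 1 is a doubling. All p-values come from the spread between these samples. In bulk RNA, fewer expressing cells and less RNA per cell cannot be told apart.

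Proteins that enter the secretory pathway fold in the ER, where chaperones, disulfide isomerases and glycan-reading lectins assist them and where ERAD removes those that fail. When unfolded proteins accumulate, the sensors IRE1, PERK and ATF6 are released from the chaperone BiP. IRE1 splices the Xbp1 message, ATF6 is cut in the Golgi to free its transcription factor part, and both factors raise chaperone and ERAD genes, whereas PERK slows translation and raises the factor ATF4. Liver cells, which secrete large amounts of protein, rely heavily on this system. A gene-level table does not separate spliced from unspliced Xbp1, and cleavage of ATF6 and phosphorylation of PERK leave no direct trace in it.

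XBP1 and ATF6 are known to bind the ER stress response element (ERSE), which was searched as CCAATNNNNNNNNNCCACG, and the shorter ERSE-II, searched as ATTGGNCCACG. The XBP1/ATF6 site known as the UPRE was searched by its core TGACGTGG. Both strands were read, and although the ERSE and the ERSE-II end in the same letters, no place in a member's window matched both. RefSeq promoter windows (GRCm38.p6, 250 bases before to 50 after a gene's start) were at hand for 33 of the 37 members, leaving out Atf6, Hyou1, Manf and Derl1. The ERSE was found in 9 of these 33 members (27.3%), against 0.137% of the 27025 genes that have a window (0.119% of all 32851 windows). The ERSE-II was found in 2 members (6.06%), against 0.0444% of these genes (0.0365% of all windows). The exact UPRE core was found in none of the members' windows, against 0.714% of these genes (0.676% of all windows). Variants of this core were not searched, so sites that differ from it by a base would be missed. For the ERSE and the ERSE-II the share of genes with a match was thus higher among the members than among all genes with a window. Motifs and members were both chosen as parts of the XBP1/ATF6 response, so this difference is not an independent result. The matches are given here with 5 bases on each side and read in the direction of the motif. Capitals mark the fixed letters.
Hspa5: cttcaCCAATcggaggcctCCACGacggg
Hsp90b1: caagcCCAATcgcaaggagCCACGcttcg
Hsp90b1: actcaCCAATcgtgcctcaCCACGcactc
Dnajc3: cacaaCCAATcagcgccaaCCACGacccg
Calr: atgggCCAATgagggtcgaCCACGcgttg
Canx: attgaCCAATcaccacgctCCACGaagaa
Pdia6: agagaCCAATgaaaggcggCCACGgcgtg
Creld2: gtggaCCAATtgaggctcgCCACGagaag
Syvn1: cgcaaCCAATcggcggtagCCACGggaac
Derl3: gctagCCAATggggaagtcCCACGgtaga
Herpud1: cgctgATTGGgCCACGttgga
Dnajb11: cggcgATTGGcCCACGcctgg

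In the 10 ERSE matches the 9 bases between the fixed letters held 6 or 7 G or C bases. The match of Hspa5 lies at chr2:34772020-34772048 on the plus strand and that of Herpud1 at chr8:94386372-94386392 on the plus strand, flanks included. Hsp90b1 has a pair of matches on opposite strands, at chr10:86705633-86705661 on the minus strand and chr10:86705528-86705556 on the plus strand. The match of Dnajb11 begins after the RefSeq start, at base 8. Of the 9 members with an ERSE only Hspa5 was called lower after GRHL2 transfection in the test described next (5.91% of all genes were), and 3, with Hsp90b1 and Canx added, when the replicate number was a block (13.9% of all genes). These 9 members had a median log2 fold change of -0.07. Of the pair with an ERSE-II, Herpud1 was called lower and Dnajb11 was not. A match describes the letters in a window and shows no binding.

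**Figure D1:**
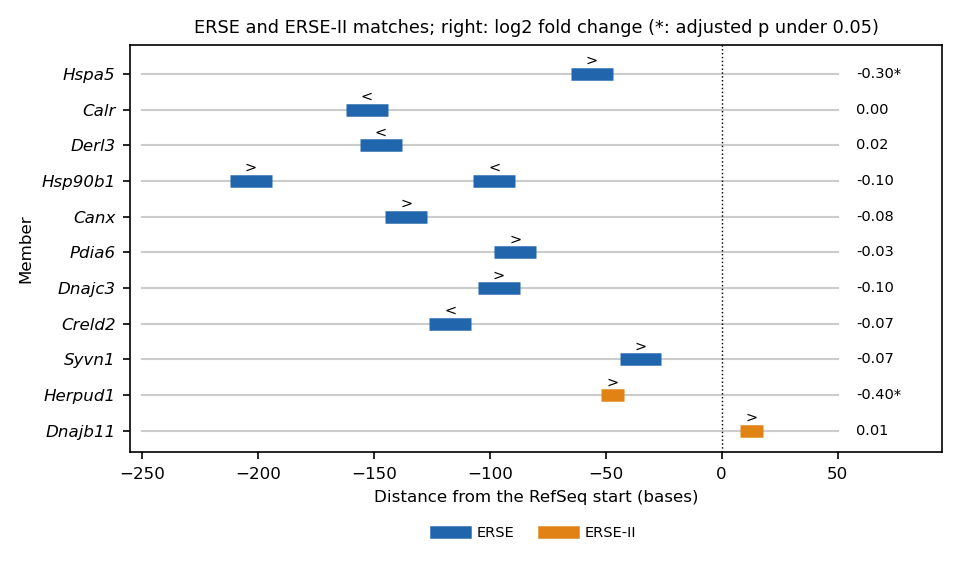
Positions of ERSE and ERSE-II matches in the promoter windows of 11 members, in bases from the RefSeq start (x axis), with the direction of the motif as an arrowhead and the log2 fold change (GRHL2 minus pcDNA3) on the right, starred where the adjusted p was under 0.05 without the replicate block. Apart from the match of Dnajb11, every match lies before the start, and Hspa5 (-0.30) and Herpud1 (-0.40) are the starred genes.

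The promoters of 3 chaperone and ERAD genes are given in full over the 250 bases before the RefSeq start, to show where the matches lie, with each whole match in capitals and each sequence 5′ to 3′ on the strand of its gene. They are Hspa5 (chr2:34771840-34772089, plus strand), Herpud1 (chr8:94386179-94386428, plus strand) and Hsp90b1 (chr10:86705445-86705694, minus strand).
Hspa5: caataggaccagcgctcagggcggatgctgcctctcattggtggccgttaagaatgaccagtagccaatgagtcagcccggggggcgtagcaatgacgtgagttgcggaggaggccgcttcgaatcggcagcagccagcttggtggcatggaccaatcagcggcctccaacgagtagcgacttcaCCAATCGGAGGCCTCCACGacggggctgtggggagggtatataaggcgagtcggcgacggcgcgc
Herpud1: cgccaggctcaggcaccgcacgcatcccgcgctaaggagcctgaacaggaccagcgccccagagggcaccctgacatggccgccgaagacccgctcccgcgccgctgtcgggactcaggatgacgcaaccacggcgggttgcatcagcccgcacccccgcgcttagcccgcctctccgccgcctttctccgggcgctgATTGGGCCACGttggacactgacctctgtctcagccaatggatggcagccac
Hsp90b1: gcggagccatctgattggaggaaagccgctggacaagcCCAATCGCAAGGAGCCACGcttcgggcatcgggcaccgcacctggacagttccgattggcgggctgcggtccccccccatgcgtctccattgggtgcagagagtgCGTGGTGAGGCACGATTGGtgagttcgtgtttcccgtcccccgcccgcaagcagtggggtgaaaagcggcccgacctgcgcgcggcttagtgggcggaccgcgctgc

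The labelled cell type and the transfection were checked first. Of the 11 hepatoblast and biliary epithelial markers, 10 were in the table, and 8 of these lay above the median gene in control cells. The keratins Krt8, Krt19 and Krt18 stood at mean log2 levels of 15.31, 15.05 and 14.76 and the hepatocyte factor Hnf4a at 11.16, whereas albumin (Alb) stood at 5.25, below the median gene at 6.44. Epcam (log2 fold change 1.75) and Krt7 (0.44) were called higher in GRHL2 samples and Afp (-0.21) lower, and the other 7 were not called. All 3 macrophage, 4 endothelial and 4 stellate cell or fibroblast markers in the table lay below the median gene, with Ptprc at 0.90, Csf1r at 4.48 and Cd68 at 6.08, Cdh5 at 1.23 and Pecam1 at 3.33, and Acta2 at 0.80 and Col1a1 at 5.22 in controls. Of these 11 genes Pdgfrb, a stellate cell marker, was called higher in GRHL2 samples (0.11, limma, adjusted p = 0.00886), and Cd68 (adjusted p = 0.0205), Kdr (0.0411) and Col1a1 (0.0281) were also called higher with the replicate block. For each of these cell types the linear values of its markers were summed in each sample, and the log2 of the sum was taken. It ran from 6.42 to 6.61 in pcDNA3 and from 6.61 to 6.69 in GRHL2 samples for macrophages. For endothelium it ran from 4.37 to 4.40 and from 4.33 to 4.44. For stellate cells and fibroblasts it ran from 5.49 to 5.77 and from 5.62 to 5.90. The part of these markers in the results was not tested. Mouse Grhl2 (chr15:37233036-37363569) stood at 4.68, 4.57, 4.42 and 4.44 in pcDNA3 replicates 1 to 4 and at 6.30, 6.96, 5.65 and 6.05 in GRHL2 replicates 1 to 4, a log2 fold change of 1.71 (SE 0.222, limma, adjusted p = 0.001). The transfected cDNA is human, and how many of its reads were counted for the mouse gene is not known.

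Few members were called different between the groups, and all of these were lower in GRHL2-transfected cells. By limma with Benjamini-Hochberg adjustment over all 18671 genes, 6 of the 37 members (16.2%) were called lower at an adjusted p under 0.05, against 5.91% of all genes. None was called higher, against 10.5% of all genes, and none was higher at an unadjusted p under 0.05 either, against 18.4% of all genes, while 10 (27%) were lower at that level, against 12.7% of all genes. Taking both directions together, 16.4% of all genes and 16.2% of the members were called. The members called were the ATF6 sensor gene itself, the PERK gene Eif2ak3, the BiP gene Hspa5, its J-domain partner Dnajb9 and the ERAD genes Herpud1 and Selenos. Their decreases were small, from 12.8% to 26.6% of the control level.

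With the replicate number as a block in the fit, 10 members were called lower, against 13.9% of all genes, and 1 was called higher, against 18.2%. The members added were Crebrf, Hsp90b1, Canx and Ufm1 on the lower side and Pdia4 on the higher side. Members are mostly well expressed, and 36 of the 37 lay above the median gene in control cells. Among the 10973 genes with a mean log2 level of at least 5, the calls covered 8.19% lower and 6.52% higher.

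Over all 37 members the median log2 fold change was -0.06, with 24 of them (64.9%) below 0, whereas the median of all genes was 0.007 with 46.1% below 0. In 8 members the highest GRHL2 sample lay below the lowest pcDNA3 sample, a pattern seen in 9.47% of all genes, and the opposite pattern was seen in none of the members and in 14.3% of all genes. These 8 were the 6 called members with Hsp90b1 and Dnajc3. Samples with replicate numbers 1 and 2 stood apart from those with 3 and 4 in both groups. The median of the members was -0.02 within replicates 1 and 2 and -0.07 within replicates 3 and 4. The share of calls that were higher rests on how samples are scaled. Of all calls, 63.9% were higher with the values as deposited, 75.9% with equal upper quartiles, 77% with equal sums and 47.1% with equal medians, and the count of members called higher was 0 under each of them.

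**Figure D2:**
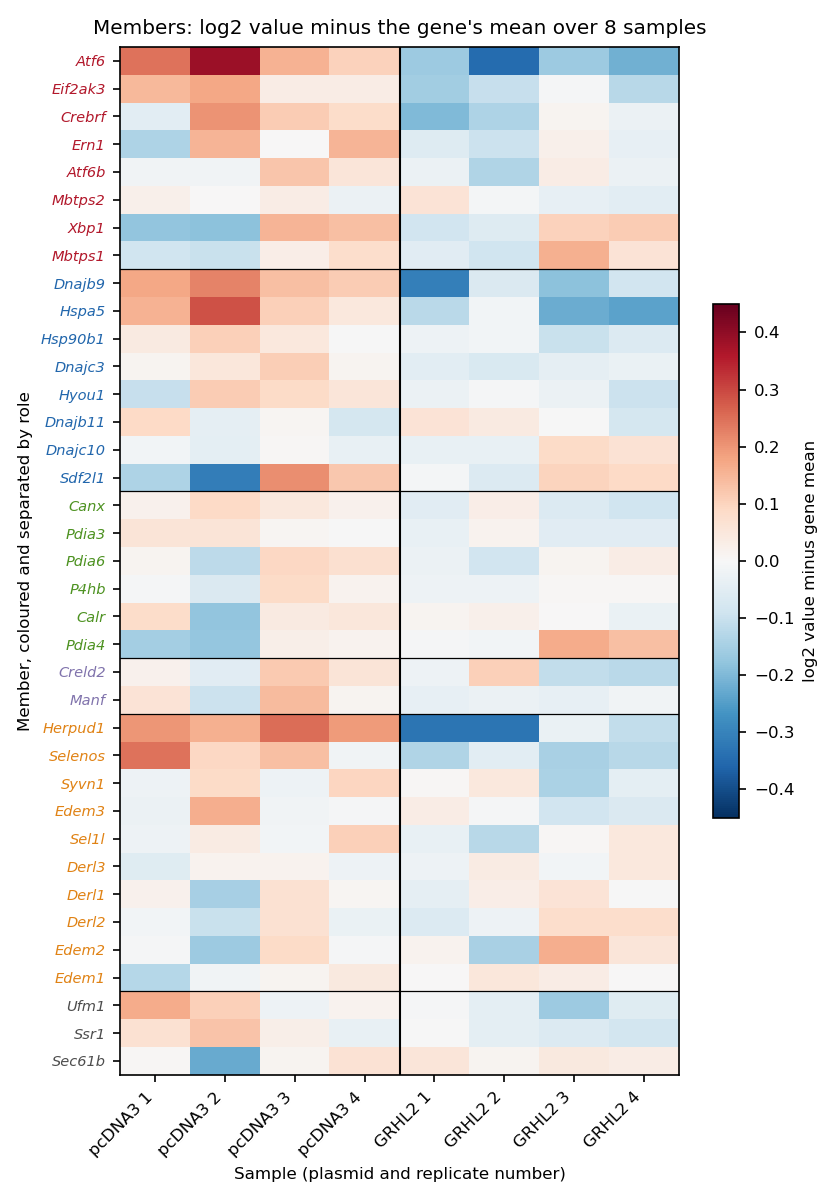
Heat map of the log2 value minus the gene's mean over the 8 samples (colour scale, log2 units) for the 37 members (rows, grouped by role) in each sample (columns). Atf6, Dnajb9, Hspa5 and Herpud1 are above their mean in all 4 pcDNA3 samples and below it in all 4 GRHL2 samples, while Xbp1 and Sdf2l1 follow the replicate number more than the group.

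The sensors and transducers are described first, apart from the genes that the XBP1/ATF6 branch serves. Of 8 genes, 2 were called lower (25%, against 5.91% of all genes) and 0 higher (10.5% of all genes), with a median log2 fold change of -0.08. With the replicate block 3 were called lower, against 13.9% of all genes. Atf6 (chr1:170704674-170867771, minus strand) codes for the membrane-bound transcription factor that senses ER stress and is freed by cleavage. It stood at 8.67, 8.81, 8.58 and 8.53 in pcDNA3 replicates 1 to 4 and at 8.26, 8.08, 8.26 and 8.21 in GRHL2 replicates 1 to 4. Every GRHL2 sample lay below every control, and replicate 2 held both the highest control value and the lowest GRHL2 value. Atf6 fell by 0.45 on the log2 scale (95% interval -0.60 to -0.29, limma, adjusted p = 0.00253), the largest decrease among the members. It was -0.57 within replicates 1 and 2 and -0.32 within replicates 3 and 4.

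Eif2ak3 (chr6:70844515-70905245, plus strand) codes for PERK, the kinase that phosphorylates eIF2α and slows translation. Its values were 8.23, 8.26, 8.12 and 8.12 in the controls and 7.93, 7.98, 8.08 and 7.96 in the GRHL2 samples. The groups did not overlap, but the pair with number 3 differed by only -0.04. The log2 fold change was -0.20 (95% interval -0.32 to -0.08, limma, adjusted p = 0.0329), with -0.29 within replicates 1 and 2 and -0.10 within replicates 3 and 4. The call was lost when GRHL2 replicate 1, 2 or 4 or pcDNA3 replicate 1 or 2 was left out, with log2 fold changes from -0.228 to -0.172 over the samples left out and an adjusted p of up to 0.0947. Of its exonic bases, 8.05% overlap a gene on the opposite strand, Gm43292, and reads were counted without regard to strand.

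The IRE1 gene Ern1, whose product splices the Xbp1 message, was not called. It stood at 7.45, 7.74, 7.59 and 7.74 in the controls and at 7.53, 7.49, 7.61 and 7.55 in the GRHL2 samples, so that the groups overlapped. Its log2 fold change was -0.08 (95% interval -0.24 to 0.07, limma, adjusted p = 0.453; exact permutation p = 0.314). Xbp1 itself, the transcription factor at the end of that arm, stood at 10.38, 10.37, 10.71 and 10.69 in the controls and at 10.47, 10.50, 10.66 and 10.67 in the GRHL2 samples. In both groups replicates 1 and 2 were the low samples, and the groups overlapped. The log2 fold change was 0.035 (95% interval -0.17 to 0.24, limma, adjusted p = 0.831), with 0.11 within replicates 1 and 2 and -0.035 within replicates 3 and 4, and its sign changed when pcDNA3 replicate 1 or 2 was left out.

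Of the remaining transducers, Crebrf, a regulator of the CREB3 factors, had the largest difference at -0.18 (limma, adjusted p = 0.095). It was lower in all 4 same-numbered pairs, and its adjusted p was 0.0219 with the replicate block. Atf6b, the paralog of Atf6, had a log2 fold change of -0.07 (limma, adjusted p = 0.403). With a correction for GC content the value was -0.136 (adjusted p = 0.0921), and with that correction and the replicate block together Atf6b was called lower (adjusted p = 0.0198). The proteases that cut ATF6 in the Golgi, Mbtps1 and Mbtps2, had log2 fold changes of 0.04 and -0.015, and 28.4% of the exonic bases of Mbtps2 also belong to Yy2.

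**Figure D3:**
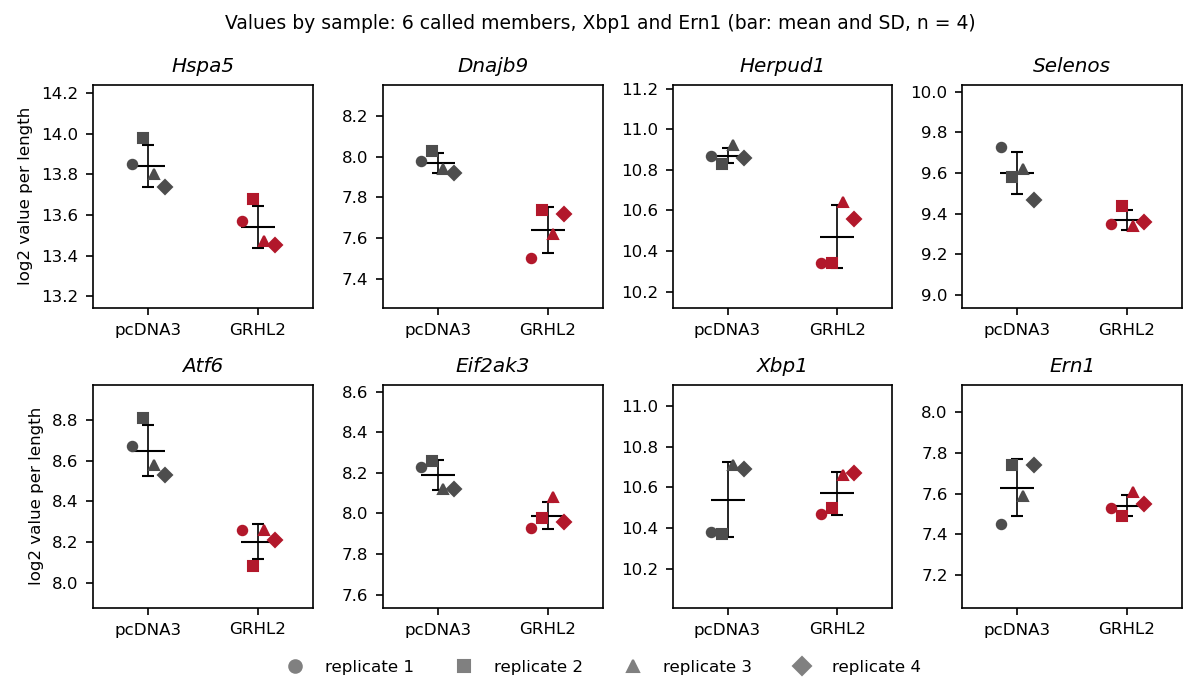
Log2 values per length in each of the 8 samples (points, shaped by replicate number) for the 6 called members, Xbp1 and Ern1, with the mean and SD of each group (bars, n = 4). The groups are separate for the 6 called members, with Hspa5 controls at 13.74 or above and GRHL2 samples at 13.68 or below, and they overlap for Xbp1 and Ern1.

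The other 29 members are chaperones, folding enzymes, ERAD factors and translocation genes, many of them known targets of XBP1 and ATF6. Of these, 4 were called lower (13.8%, against 5.91% of all genes) and 0 higher (10.5% of all genes), and the median log2 fold change was -0.06. With the replicate block, 7 were called lower and 1 higher, against 13.9% and 18.2% of all genes. Those called are the chaperone gene Hspa5, the cochaperone gene Dnajb9 and the ERAD genes Herpud1 and Selenos. The median was -0.01 within replicates 1 and 2 and -0.06 within replicates 3 and 4.

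Among the Hsp70 and Hsp90 chaperones and their J-domain partners, 2 of 8 were called lower (25%, against 5.91% of all genes). Hspa5 (chr2:34771970-34777547, plus strand) codes for BiP, the Hsp70 of the ER lumen, which both folds proteins and holds the sensors inactive. It was the second most abundant member in control cells, above 99.6% of all genes. It stood at 13.85, 13.98, 13.80 and 13.74 in the controls and at 13.57, 13.68, 13.47 and 13.45 in the GRHL2 samples. The groups lay apart by a small margin, but the 4 same-numbered pairs differed by like amounts, from -0.33 to -0.28. The log2 fold change was -0.30 (95% interval -0.44 to -0.16, limma, adjusted p = 0.0118), or 18.8% below the control level, with -0.29 within replicates 1 and 2 and -0.31 within replicates 3 and 4.

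Dnajb9 (chr12:44205559-44210326, minus strand) codes for a J-domain partner of BiP that acts on ERAD substrates and on IRE1. Its values were 7.98, 8.03, 7.94 and 7.92 in the controls and 7.50, 7.74, 7.62 and 7.72 in the GRHL2 samples. The controls were close together and all above the GRHL2 samples, of which replicate 1 was the lowest. Its log2 fold change was -0.33 (95% interval -0.46 to -0.19, limma, adjusted p = 0.00626), with -0.39 within replicates 1 and 2 and -0.26 within replicates 3 and 4.

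Hsp90b1, the Hsp90 of the ER, stood at 12.51, 12.58, 12.52 and 12.47 in the controls and at 12.45, 12.46, 12.37 and 12.41 in the GRHL2 samples. These groups did not overlap either, but the log2 fold change was only -0.10 (95% interval -0.19 to -0.01, limma, adjusted p = 0.117; 0.0282 with the replicate block), and 15.7% of its exonic bases overlap other genes. The J-domain gene Dnajc3 was similar, with a log2 fold change of -0.095 (limma, adjusted p = 0.158) and groups that did not overlap. Hyou1, which exchanges the nucleotide of BiP, had a log2 fold change of -0.07 (95% interval -0.20 to 0.05). The other J-domain genes Dnajb11 and Dnajc10 had differences of 0.005 and 0.04. Sdf2l1, which works with Dnajb11, had the widest interval of all members, from -0.18 to 0.29, and pcDNA3 samples that ran from 8.33 to 8.85.

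None of the 6 lectin chaperones and protein disulfide isomerases was called, against 5.91% of all genes called lower and 10.5% called higher. With the replicate block Canx was called lower and Pdia4 higher, against 13.9% and 18.2% of all genes. These 6 genes were among the most abundant members, with Pdia3 at 13.87, P4hb at 13.72, Calr at 13.71 and Canx at 12.81 in control cells. Canx and Calr code for calnexin and calreticulin, the lectins that retain glycoproteins until they are folded, and Pdia3 for the isomerase that they recruit. Their log2 fold changes were -0.08, 0.00 and -0.06, and the 95% interval of Calr ran from -0.12 to 0.12. Canx was lower in all 4 pairs, with a limma adjusted p of 0.181, and of 0.0385 with the replicate block. P4hb, the canonical protein disulfide isomerase, and Pdia6 had differences of -0.01 and -0.03. Pdia4 was the member with the largest positive difference. It stood at 10.87, 10.85, 11.05 and 11.04 in the controls and at 11.02, 11.01, 11.19 and 11.16 in the GRHL2 samples. The groups overlapped because replicates 1 and 2 were low in both, yet each GRHL2 sample lay above its control, by 0.12 to 0.15. The log2 fold change of 0.14 had a limma adjusted p of 0.18, and of 0.00766 with the replicate block. Manf and Creld2, small UPR-induced proteins that are secreted or kept in the lumen, had log2 fold changes of -0.06 and -0.07 and were not called.

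Of the 10 ERAD members, 2 were called lower (20%, against 5.91% of all genes) and the median log2 fold change was -0.01. Herpud1 (chr8:94386438-94395377, plus strand) codes for a membrane protein that organises the ubiquitin ligase complex of ERAD. It stood at 10.87, 10.83, 10.92 and 10.86 in the controls and at 10.34, 10.34, 10.64 and 10.56 in the GRHL2 samples. The controls lay close together, and the GRHL2 samples were all lower, replicates 1 and 2 by the most. Herpud1 fell by 0.40 on the log2 scale (95% interval -0.56 to -0.24, limma, adjusted p = 0.00504), with -0.51 within replicates 1 and 2 and -0.29 within replicates 3 and 4.

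Selenos (chr7:66079649-66089405, plus strand) codes for a selenoprotein of the ER membrane that helps to draw substrates out of the ER. Its values were 9.73, 9.58, 9.62 and 9.47 in the controls and 9.35, 9.44, 9.34 and 9.36 in the GRHL2 samples. The groups did not overlap, but the lowest control and the highest GRHL2 sample nearly met. Between the groups the log2 fold change was -0.23 (95% interval -0.36 to -0.10, limma, adjusted p = 0.0273), with -0.26 within replicates 1 and 2 and -0.195 within replicates 3 and 4. Selenos was no longer called when GRHL2 replicate 1, 3 or 4 or pcDNA3 replicate 1 or 3 was left out, with log2 fold changes from -0.270 to -0.184 and an adjusted p of up to 0.0729.

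The ligase Syvn1 and its partner Sel1l, which form the core of the complex that Herpud1 organises, had log2 fold changes of -0.07 and -0.05. Edem1, Edem2 and Edem3, which mark misfolded glycoproteins by trimming their mannose, had differences of 0.045, 0.044 and -0.059. The derlins Derl1, Derl2 and Derl3, which form the channel side of ERAD, had differences of 0.025, 0.035 and 0.024. Derl3 was the member with the lowest level, 3.36 in controls, where the rlog transformation shrinks differences most. Among the translocation and UFMylation genes, the translocon subunit Sec61b had a log2 fold change of 0.07, the translocon-associated Ssr1 of -0.10 and the ubiquitin-like modifier Ufm1 of -0.13. Ufm1 was lower in all 4 pairs, with a limma adjusted p of 0.14, and of 0.0183 with the replicate block.

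For the 31 uncalled members the log2 fold changes ran from -0.18 to 0.14. Their 95% intervals reached from -0.325 to 0.294, and 27 of the 31 lay wholly within 0.25 of 0. The exact two-sided permutation test of the group means gave p = 0.0286, the smallest that 4 samples against 4 allow, for the 6 called members and also for Hsp90b1 and Dnajc3, which restates that the groups of these 8 did not overlap. Atf6, Hspa5, Dnajb9 and Herpud1 were called lower in all 19 alternative fits, Selenos in 14 and Eif2ak3 in 13 of them.

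**Figure D4:**
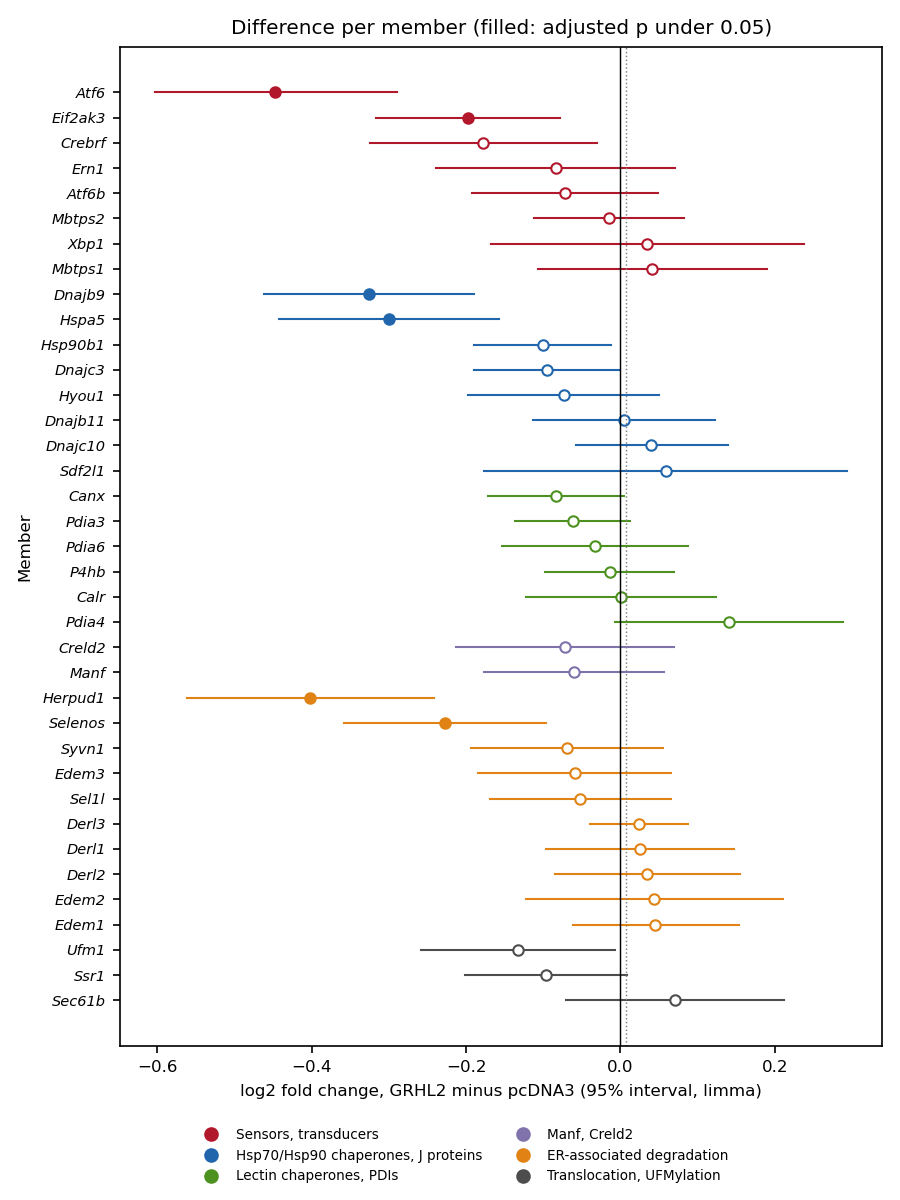
Log2 fold change of each of the 37 members (GRHL2 minus pcDNA3, x axis; points) with its 95% interval from limma (lines), coloured by role and filled where the adjusted p was under 0.05; the dotted line marks the median of all genes. The 6 filled points lie between -0.45 and -0.20, and the other 31 between -0.18 and 0.14.

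In control cells the members spanned a wide range of levels, from Pdia3 at 13.87 ± 0.03 to Derl3 at 3.36 ± 0.03 (SD, n = 4), with a median of 9.86. Hspa5 at 13.84 ± 0.10, P4hb at 13.72 ± 0.06 and Calr at 13.71 ± 0.12 came next, and neither Pdia3 and Hspa5 nor P4hb and Calr differed beyond the SD of the more variable gene. Canx at 12.81, Hsp90b1 at 12.52 and Pdia6 at 12.15 followed, each below the one before by more than the SD of either. The sensors were lower, with Ern1 at 7.63 ± 0.14, Eif2ak3 at 8.19 ± 0.07 and Atf6 at 8.65 ± 0.12, and Xbp1 stood highest among the sensors and transducers at 10.54 ± 0.19. The within-group SD of the members had a median of 0.0745 in pcDNA3 and 0.0624 in GRHL2 samples. Replicate 2 of pcDNA3 was the lowest of its group for 16 members and the highest for 13.

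The genes whose deviations from the group means over the 8 samples were most like those of Hspa5 were no members. They were Tra2a (Pearson r 0.998), Zc3h12c (0.994), Lrig1 (0.993), Rae1 (0.993) and Best1 (0.993). Of these Rae1 was called lower (log2 fold change -0.20, limma, adjusted p = 0.0314) and the other 4 were not called. Among the members the most alike were Pdia3 (0.918), Hsp90b1 (0.887) and Canx (0.882), with Pdia3 in place 819 among all genes. The most opposite were Pdia6 (-0.923), Pdia4 (-0.864), Edem2 (-0.840) and Mbtps1 (-0.838). These correlations describe 8 samples that share the split between replicates 1 and 2 and replicates 3 and 4.

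Other genes of the pathway were read as lists, each by its counts and its median. In the list of PERK output and integrated stress response, 11 of 20 genes were called lower (55%, against 5.91% of all genes) and 0 higher (10.5% of all genes). All 20 lay below 0, with a median of -0.32. With the replicate block 15 were called lower and 0 higher, against 13.9% and 18.2% of all genes. The largest decreases were those of Ppp1r15a, which restores translation, and Ddit3, the pro-apoptotic factor CHOP. Ppp1r15a stood at 10.18, 10.53, 9.93 and 9.77 in the controls and at 8.76, 9.02, 8.46 and 8.36 in the GRHL2 samples, a log2 fold change of -1.45 (limma, adjusted p = 0.000757). Ddit3 stood at 9.84, 10.07, 9.85 and 9.73 against 8.61, 8.67, 8.74 and 8.51, a log2 fold change of -1.24 (limma, adjusted p = 2.9e-05). For both genes the groups were far apart, and the differences exceeded that of any member of the UPR and chaperone list. The PERK output list had been read in these data before, and its choice is not independent of them.

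In the 4 lists nearest to the members in function, the counts called lower are set beside the 5.91% called lower over all genes. Of 35 other ER folding enzymes and cochaperones 1 was called lower (2.86%), the J-domain gene Dnajc1 (-0.155, limma, adjusted p = 0.0329), and the median was 0.03. Of 25 translocon, signal peptidase and oligosaccharyltransferase genes 1 was called lower (4%), Sec62 (-0.27, limma, adjusted p = 0.014), which acts in post-translational translocation and in the turnover of ER. Of 24 other ERAD and UFMylation genes 5 were called lower (20.8%), led by Herpud2, the paralog of Herpud1 (-0.28, limma, adjusted p = 0.00513), and the ubiquitin-conjugating enzyme Ube2g2 (-0.245, limma, adjusted p = 0.0234), with a median of -0.015. Of 20 genes of ER to Golgi transport 2 were called lower (10%), the COPII coat genes Sec24a (-0.29) and Sec23a (-0.22), with a median of -0.03. None of the genes in these 4 lists was called higher, against 10.5% of all genes. With the replicate block, 2, 4, 6 and 7 genes were called lower in the 4 lists as ordered here and 4, 0, 2 and 0 higher. Against these stand 13.9% of all genes called lower and 18.2% called higher with the block. Dnajc1 was no longer called with equal upper quartiles or equal sums, or without GRHL2 replicate 1, 3 or 4 or pcDNA3 replicate 3 or 4. Ube2g2 was no longer called without GRHL2 replicate 2, 3 or 4 or pcDNA3 replicate 1 or 3, nor was Sec24a without GRHL2 replicate 3 or 4 or pcDNA3 replicate 1, 2 or 3. Over all alternatives their log2 fold changes stayed between -0.18 and -0.13, between -0.28 and -0.19 and between -0.33 and -0.23, with adjusted p up to 0.0823, 0.0614 and 0.0924.

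Among 6 CREB3-family genes, 1 was called lower (16.7%, against 5.91% of all genes) and 0 higher (10.5% of all genes). The gene called was Creb3l2 (-0.23, limma, adjusted p = 0.0401). It was no longer called with equal sums or without GRHL2 replicate 1, 2 or 4 or pcDNA3 replicate 2, 3 or 4. Over all alternatives its log2 fold changes ran from -0.28 to -0.19, with adjusted p up to 0.0997. With the replicate block 2 were called lower, Creb3l2 and Hcfc1, against 13.9% of all genes. Of 5 messages known to be cut by IRE1, 1 was called higher (20%, against 10.5% of all genes). This was Pdgfrb (0.11), at a level near -0.2 close to the low end of the table. The other 4 were not called, and with the replicate block 1 was again called higher, against 18.2% of all genes. Only 1 of the 5 messages lay above the median gene in control cells, where Scara3 stood at -0.14 and Bloc1s1 at 2.02. With equal medians Pdgfrb was not called. Of 15 cytosolic and mitochondrial heat shock genes, 2 were called higher (13.3%, against 10.5% of all genes) and 1 lower (6.67%, against 5.91%). With the replicate block, 3 were called higher and 6 lower, against 18.2% and 13.9% of all genes. The stress-inducible cytosolic Hsp70 genes Hspa1b (1.24, limma, adjusted p = 0.00346) and Hspa1a (1.10, adjusted p = 0.00189) are near-identical copies. The methods set a minimum alignment quality for counted reads, so reads that fit both genes may not have been counted for either. Hspa1b ran from 5.88 to 6.19 in the controls and from 6.80 to 7.91 in the GRHL2 samples, so the groups did not overlap. Its direction was the opposite of that of Hspa5, the Hsp70 of the ER. Bag3, a cochaperone of cytosolic Hsp70, was called lower (-0.29, limma, adjusted p = 0.0183).

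**Figure D5:**
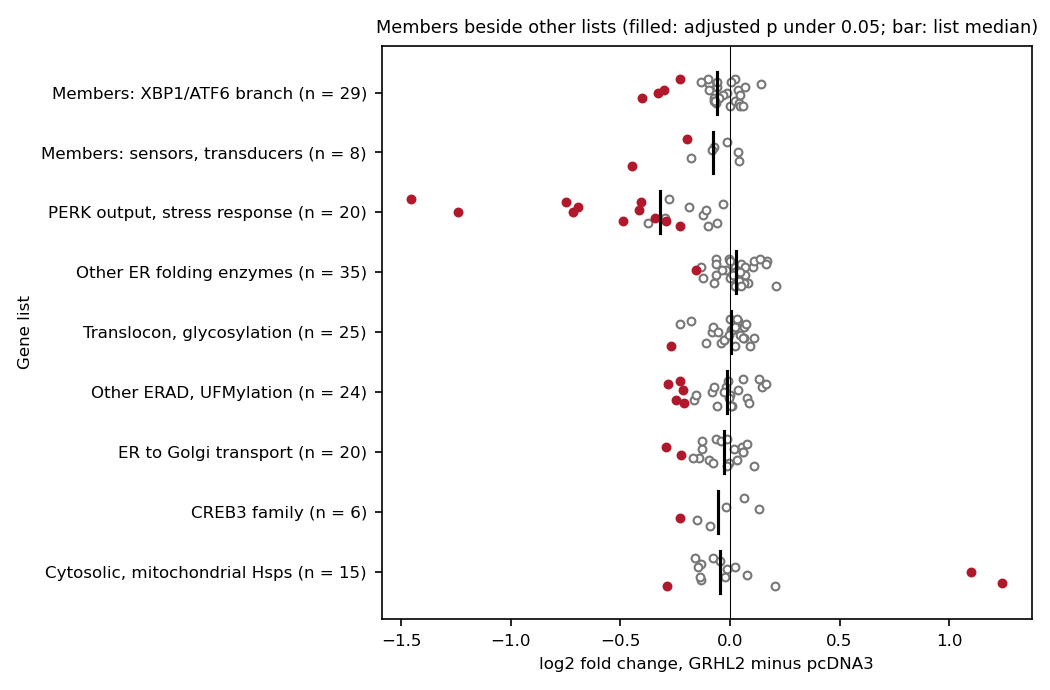
Log2 fold changes (GRHL2 minus pcDNA3, x axis) of the members in the XBP1/ATF6 branch (n = 29), of the sensors and transducers (n = 8) and of 7 other gene lists; each point is a gene, filled where the adjusted p was under 0.05, and the bar is the list's median. The list of PERK output lies furthest to the left, with a median of -0.32, and the other medians lie between -0.08 and 0.03.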

How the data were processed

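According to the labels and methods, total RNA was sequenced paired-end, reads were mapped to mm10 by HISAT2 and assigned to exons by HTSeq in its unstranded mode, genes under 10 cumulated reads were dropped, and the rest were normalised by the authors with DESeq2. The submitters' processing notes give HISAT2 2.2.1, HTSeq 0.9.1 and DESeq2 1.40.2, and name GRCm39 beside mm10. The methods state other versions of HISAT2 and DESeq2, and which were used was not settled. The methods describe rlog values per transcript length in a paragraph headed by public datasets, which was taken to apply here. The deposited values were read as log2 (rlog less log2 transcript length), although the table is named for FPKM, because 4.81% of the 149368 values are below 0 and the lowest is -2.85. The rlog shrinks differences of genes with few reads, and the depth of each sample is unknown.

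Differences were tested on all 18671 genes with limma 3.58.1 (R 4.3.3; mean-variance trend, no pseudocount, Benjamini-Hochberg adjustment, adjusted p under 0.05), without a replicate block as the study names none. The replicate numbers of the labels were taken to pair the samples: deviations from the group means correlated at 0.474, 0.565, 0.549 and 0.645 in the 4 same-numbered pairs. Differently numbered samples also correlated within replicates 1 and 2 (0.436 and 0.3445) and within replicates 3 and 4 (0.500, and 0.602 for GRHL2 replicate 3 with pcDNA3 replicate 4, above its own pair), and were negatively correlated between these sets, so pairing by number and the split into these sets overlap. No label gives a batch. Members were matched by symbol, and Ero1a and Ero1b through RefSeq synonyms. Vimp was left out as an older symbol of Selenos, and Hspb1, Dlk1, Adgre1 and Col3a1 matched no row. Positions of genes follow GENCODE M21 (GRCm38).

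The genes named are Grhl2, every member, the called genes with the largest change of each further list (at most 2 in each direction) and the 5 genes most like Hspa5. Values by sample are also given for Hsp90b1 and Pdia4, which were chosen after their values were seen, as were the marker genes named. Members, lists and alternatives were chosen with earlier results of these data known. The alternatives were other scalings, filters on low values, a pseudocount of 1, the replicate block, a term for replicates 1 and 2 against 3 and 4, a GC correction without and with the block, no trend, and each sample left out. The test was checked on simulated data before use.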

Additional observations from a re-analysis of the deposited data

Results flagged for a closer look

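Within the groups of 4 samples, 3 of the 74 groups of member values held a sample far from the others by Dixon's test at the 95% level, where chance alone flags about 1 in 20. Calr stood at 13.53 in pcDNA3 replicate 2, against 13.75 to 13.79 in the other controls. Edem3 stood at 7.95 in the same library, against 7.76 to 7.78. Selenos stood at 9.44 in GRHL2 replicate 2, against 9.34 to 9.36 in the other GRHL2 samples.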

How the results depend on the processing

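Atf6, Hspa5, Dnajb9 and Herpud1 kept their call in all 19 alternative fits, whereas Selenos and Eif2ak3 lost theirs when single samples were left out, and Eif2ak3 also with equal sums. Leaving out each sample in turn gave 4 to 6 members called lower. The number of members called lower rose from 6 to 10 with the replicate block, and 1 member, Pdia4, was called higher with the block, with the batch term and with the GC correction with block. The batch term and the GC correction with block each gave 9 members called lower. Of the members that the block added, Canx (adjusted p 0.0656) was not called with the batch term, and neither Hsp90b1 (0.0844) nor Canx (0.161) with the GC correction and block, where Atf6b (0.0198) was called lower. Over all genes, 1957 were called higher, against 3396 with the replicate block, 3064 with equal upper quartiles, 1119 with equal medians, 715 among genes with a mean of at least 5, 3270 with the batch term and 3122 with the GC correction and block. Over all genes, 1104 were called lower, against 2589 with the block, 2478 with the batch term, 2726 with the GC correction and block, and 690 to 1036 with a sample left out, with 722, 690, 719 and 691 without GRHL2 replicates 1, 3 and 4 and pcDNA3 replicate 1. The median log2 fold change of the members was -0.060 as reported, -0.038 with equal upper quartiles, -0.090 with equal medians, -0.036 with equal sums, -0.019 within replicates 1 and 2 and -0.069 to -0.043 with a sample left out. That of the XBP1/ATF6 branch was -0.059, -0.037, -0.090, -0.035, -0.010 and -0.061 to -0.043 in the same order. The median of the PERK output genes was -0.319 as reported, -0.378 within replicates 1 and 2, -0.233 within replicates 3 and 4, -0.357 with the GC correction, without and with the block, and -0.375 to -0.232 with a sample left out. The sign of uncalled members near 0 turned in some fits. With equal upper quartiles Mbtps2 was at 0.007 and P4hb at 0.008, and with equal sums they were at 0.009 and 0.010. With equal medians Dnajb11 was at -0.025, Calr at -0.029, Derl1 at -0.005 and Derl3 at -0.007. With the GC correction, without and with the block, Mbtps2 was at 0.009, Calr at -0.002 and Derl3 at -0.030. With a sample left out, the range was -0.005 to 0.077 for Mbtps1, -0.020 to 0.091 for Xbp1, -0.019 to 0.037 for Dnajb11, -0.036 to 0.139 for Sdf2l1, -0.058 to 0.029 for Calr, -0.038 to 0.011 for P4hb, -0.004 to 0.10 for Edem2 and -0.020 to 0.051 for Derl1. Except where samples or genes were left out, the cause of these shifts was not tested. The depth is unknown, and the shrinkage of the rlog limits what low genes such as Derl3 can show.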
